A study of Mus musculus with 35 samples.

Results

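The 10 genes described here code for FGF ligands (Fgf1, Fgf2 and Fgf9), FGF receptors (Fgfr1, Fgfr2 and Fgfr3) and feedback inhibitors of ERK signaling (Dusp6, Spry2, Spry4 and Spred1). Every probe set annotated to 1 of these symbols was taken, which gave 29 of the 45037 probe sets on the array and 10 of 18193 genes. The genes were chosen by name, with the differences between the 6 groups on these same arrays in view, and thus selected on the values given here. So the values and p-values below describe these arrays and are no independent support for a direction. Where a gene had several probe sets, the 1 with the highest mean over the surgery arrays is described first and the others beside it.

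RNA of 1 brain hemisphere was hybridised to Affymetrix expression arrays in 6 groups of male mice. Wild type mice of the FVB strain and mice deficient in the beta2 adrenergic receptor, which carry the deletion on the same FVB background and are called knockout mice below, underwent either middle cerebral artery occlusion (MCAO), which cuts off the blood supply of part of a hemisphere, or sham surgery. The hemisphere on the operated side was taken 24 h later, with 7 MCAO and 3 sham arrays per genotype. Naive mice, which had no surgery, gave 8 wild type and 7 knockout arrays. Normalization was run separately for the naive and the operated mice, so no level was compared between these sets. The labels give no age and do not say whether arrays are separate animals, so p-values measure the spread between arrays, which may be technical. The whole hemisphere mixes infarcted and spared tissue, and in such bulk RNA fewer cells of a type and less RNA per cell cannot be told apart.

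FGFs bind receptor tyrosine kinases together with heparan sulfate and pass the signal through adaptors, RAS, RAF and MEK to the kinase ERK. Active ERK induces its own brakes. Dusp6 codes for a phosphatase that removes phosphate from ERK in the cytoplasm, the sprouty proteins act on the steps between receptor and RAF, and Spred1 helps bring neurofibromin to RAS. In the adult brain FGF1 and FGF9 are made largely by neurons, FGF2 and FGFR3 largely by astrocytes, and FGF2 is known to rise around brain injury.

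Several arrays stood apart and bear on these genes. On wild type MCAO arrays 1, 2 and 3, Fgf1 read 6.61 to 6.82, lower than on every other surgery array, where it was 8.70 or more. The actin 3′ minus 5′ signal difference, a sign of RNA length, was 0.53, 0.58 and 0.39 on these 3 arrays against 0.93 to 1.70 on wild type MCAO arrays 4 to 7. It was as low on knockout MCAO arrays 3 and 7, at 0.49 and 0.43, where Fgf1 read 9.48 and 8.70. In naive mice low Fgf1 went with the wild type label and high Fgf1 with the knockout label, as given below, but among the surgery arrays the wild type sham arrays and wild type MCAO arrays 4 to 7 stood at the level of the knockout arrays. The genotype labels of the surgery arrays could not be settled from these values, and every comparison of genotypes after surgery takes them as given. Without wild type MCAO arrays 1 to 3 no call on the brightest probe sets was lost: the Dusp6 change in wild type mice was -0.68 (limma adjusted p = 0.0188), that of Fgf2 was 0.52 (adjusted p = 0.0197), and the genotype difference in the change was 0.78 for Dusp6 (adjusted p = 0.0407) and 0.83 for Spred1 (adjusted p = 0.0229). Wild type naive array 6 correlated with the other naive arrays at r = 0.805 to 0.830, and its actin and Gapdh 3′ minus 5′ differences were 4.88 and 3.51, so the naive results are given with and without it. The naive array medians were 6.87 to 6.94 in wild type and 7.02 to 7.05 in knockout mice, a mean shift of 0.15. Knockout naive arrays shared 3.87% to 6.39% of their probe set values exactly with one another, wild type naive arrays at most 0.107%, and no value was shared between the genotypes. Whether the naive genotypes were normalized together is not given in the sources used here. If they were normalized apart, that and the genotype cannot be told apart in any naive difference. Across the surgery arrays the actin difference averaged 0.93 in wild type sham, 1.66 in knockout sham, 0.87 in wild type MCAO and 1.01 in knockout MCAO arrays. The part of these differences in the results was not tested beyond the settings named with them.

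A probe set was called when its Benjamini-Hochberg adjusted p in limma, over all 45037 probe sets, was under 0.05. After MCAO in wild type mice 10.7% of all probe sets were called against sham, and 2 of the 29 probe sets of these genes were, 1 higher and 1 lower. In knockout mice 18.7% of all probe sets were called against sham and 6 of the 29 were, 5 higher and 1 lower. The change after MCAO differed between the genotypes for 7.41% of all probe sets and for 3 of the 29. Knockout and wild type mice differed after MCAO in 0.131% of all probe sets, 59 in number, and 3 of these 59 belonged to Dusp6 and Spred1. After sham surgery 4.67% of all probe sets and 1 of the 29 were called, and in naive mice 20.1% of all and 7 of the 29, or 39.8% of all and 12 of the 29 without wild type array 6. The median log2 difference of the 29 probe sets was -0.12 for MCAO against sham in wild type and 0.08 in knockout mice, beside 0.03 and -0.06 over all probe sets. It was 0.13 for knockout against wild type after MCAO, -0.06 after sham surgery and 0.11 in naive mice, beside -0.03, 0.03 and 0.03 over all. The MCAO comparisons and the genotype comparisons share their arrays, so the counts are not independent of one another.

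**Figure D1:**
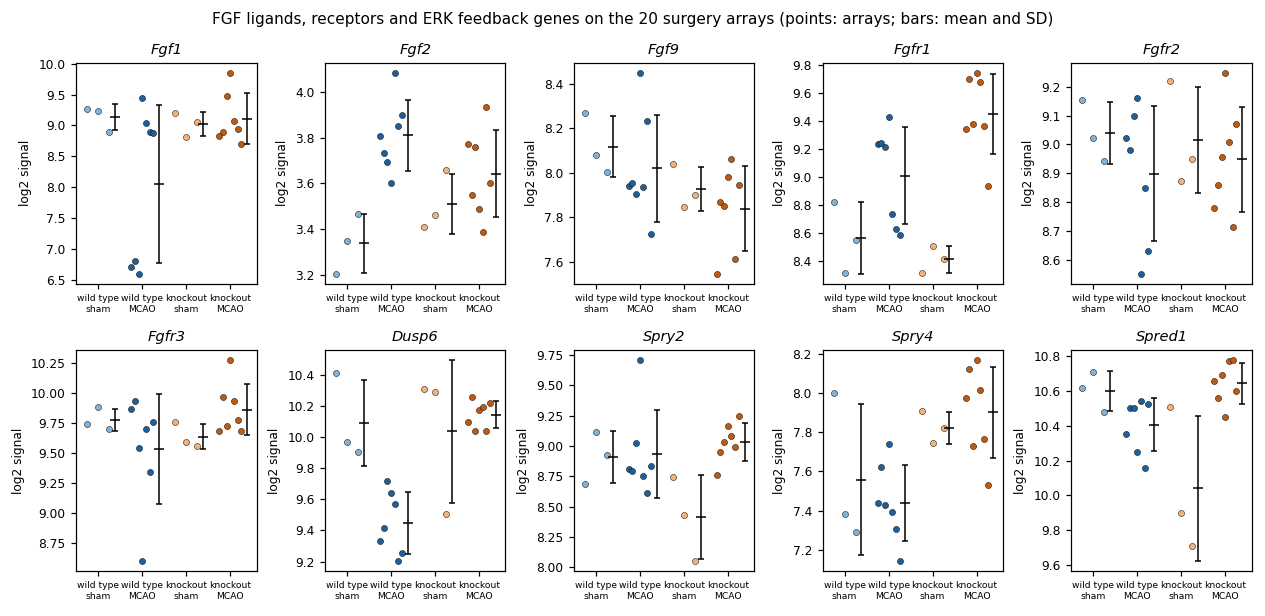
Log2 signal of the 10 genes on each of the 20 surgery arrays, in 4 groups, with the mean and SD of each group beside the points. Fgf1 is at 6.61 to 6.82 on 3 wild type MCAO arrays and at 8.70 or above on every other array, and all 7 wild type MCAO arrays lie below all knockout MCAO arrays for Dusp6.

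Fgf1 codes for an FGF that binds all FGF receptors. Its brightest probe set, 1423136_at, read 9.27, 9.24 and 8.89 on wild type sham arrays 1 to 3 and 9.21, 8.81 and 9.06 on knockout sham arrays 1 to 3. Wild type MCAO arrays 1 to 7 read 6.71, 6.82, 6.61, 9.44, 9.04, 8.89 and 8.88. Knockout MCAO arrays 1 to 7 read 8.83, 8.90, 9.48, 9.85, 9.07, 8.95 and 8.70. The wild type MCAO group thus held 3 low arrays and 4 arrays within the range of the sham and knockout arrays, while the other 3 surgery groups held no low array. A further probe set, 1450869_at, divided the same group in the same way, with 5.98, 6.08 and 6.20 on wild type MCAO arrays 1 to 3 and 7.69 to 8.34 on arrays 4 to 7. On the dimmest probe set, 1441042_at, the 3 arrays read 4.78, 4.68 and 4.69, below the 5.17 to 5.73 of arrays 4 to 7 but not below the lowest knockout MCAO array at 4.58.

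None of the 3 Fgf1 probe sets was called on the surgery arrays as deposited. The fitted difference of MCAO minus sham on 1423136_at was -1.08 in wild type (SE 0.51, limma adjusted p = 0.181, n = 7 and 3) and 0.09 in knockout mice (SE 0.51, adjusted p = 0.918). The wild type difference was called with array weights (-1.62, adjusted p = 0.00852) and with the replicate number as a block (-1.77, adjusted p = 0.0267). The sham arrays have only the lowest 3 replicate numbers, which are also those of the 3 low MCAO arrays. The value and call with the block thus rest more on these 3 low arrays. Knockout minus wild type was 1.06 after MCAO (SE 0.39, adjusted p = 0.203) and -0.11 after sham surgery (SE 0.60, adjusted p = 0.930). The mean of the wild type MCAO group, 8.05 with an SD of 1.27, lay between its high and low arrays and near none of them.

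The naive arrays parted by genotype on Fgf1. Wild type naive arrays 1 to 8 read 7.76, 7.66, 7.55, 7.61, 6.98, 6.99, 7.56 and 7.31 on 1423136_at, and knockout naive arrays 1 to 7 read 10.08, 10.10, 10.09, 10.24, 10.09, 10.09 and 10.00. The lowest knockout array was far above the highest wild type array, at 10.00 against 7.76. The knockout signal was higher by 2.67 (SE 0.12, a 6.36-fold higher signal, limma adjusted p = 1.86e-09, n = 7 and 8), and 2.60 without wild type naive array 6 (adjusted p = 7.33e-11). The other probe sets were higher too, 1450869_at by 2.08 (SE 0.08, adjusted p = 2.51e-10) and 1441042_at by 0.64 (SE 0.10, adjusted p = 0.000327), or by 2.09 and 0.69 without array 6, and no Fgf1 probe set overlapped between the naive genotypes. After sham surgery the genotypes overlapped on 1423136_at. No label sets wild type MCAO arrays 1 to 3 apart from arrays 4 to 7.

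**Figure D2:**
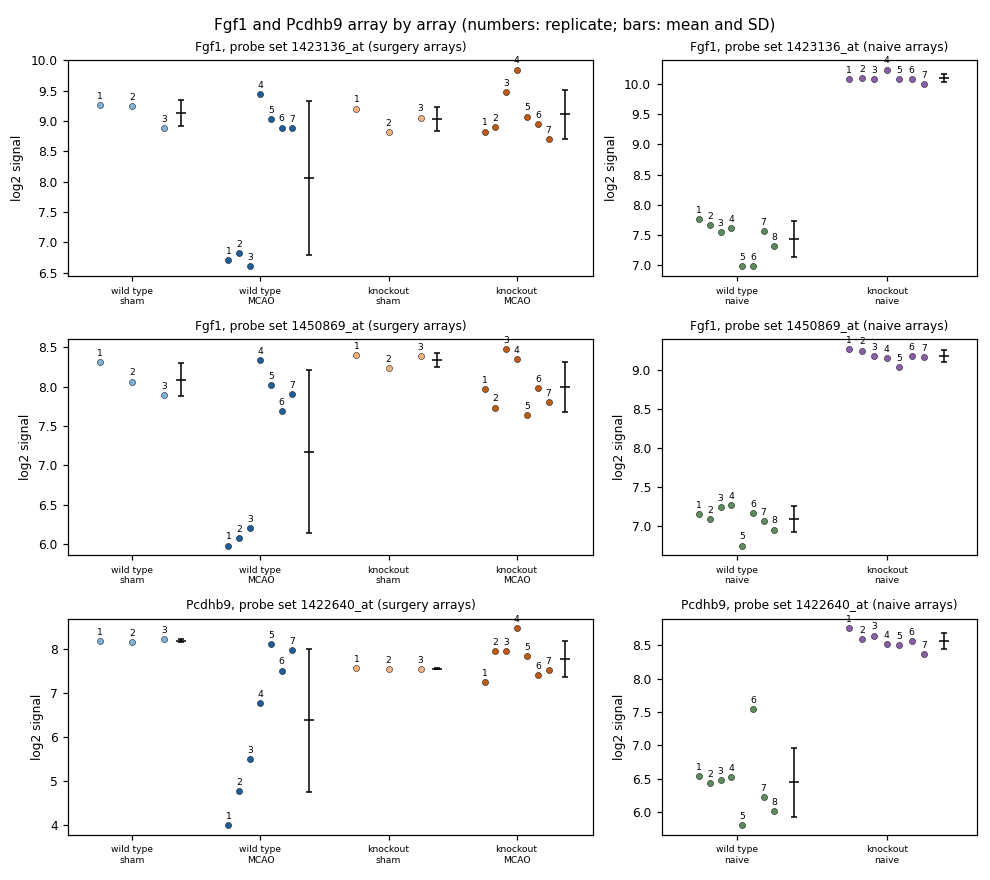
Log2 signal of 2 Fgf1 probe sets and of the Pcdhb9 probe set 1422640_at on each array, with the replicate number above each point and the mean and SD of each group; surgery arrays on the left, naive arrays on the right. Wild type MCAO arrays 1 to 3 are low on both Fgf1 probe sets, and knockout naive arrays lie above all wild type naive arrays on each.

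Of all other genes, Pcdhb9, a clustered protocadherin gene, had the pattern most like that of Fgf1 over the 20 surgery arrays (Pearson's r = 0.90; 0.93 over the 15 naive arrays). It read 3.99, 4.77, 5.50, 6.77, 8.11, 7.51 and 7.98 on wild type MCAO arrays 1 to 7, and no other surgery array was below 7.25. Wild type sham arrays lay at 8.16 to 8.22 and knockout sham arrays at 7.54 to 7.56. Naive arrays lay at 5.81 to 7.55 in wild type and 8.37 to 8.76 in knockout mice. Fgf1, Spry4 and Pcdhb9 are all on chromosome 18 in the RefSeq annotation of GRCm38.p6.

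Fgf2 codes for basic FGF, a ligand without a classical secretion signal. Its 1 probe set, 1449826_a_at, was dim, with a mean of 3.64 over the surgery arrays where the median probe set stood at 6.40. Wild type sham arrays read 3.21, 3.35 and 3.46 and wild type MCAO arrays 3.81, 3.73, 3.69, 3.60, 4.08, 3.85 and 3.90, so all MCAO arrays were above all sham arrays. Fgf2 rose by 0.47 in wild type (SE 0.12, 1.39-fold, limma adjusted p = 0.0127). This call was lost without wild type sham array 1 (0.40, adjusted p = 0.0923) and could not be made where probe sets below the median signal were left out, since Fgf2 was among them. Knockout sham arrays read 3.41, 3.46 and 3.66 and knockout MCAO arrays 3.77, 3.55, 3.76, 3.49, 3.39, 3.94 and 3.60. These overlapped, with a difference of 0.13 (SE 0.12, adjusted p = 0.440), and the difference between the genotypes in the change was -0.34 (SE 0.17, adjusted p = 0.177). In naive mice Fgf2 read 4.01 to 4.37 in wild type and 3.89 to 4.17 in knockout arrays. Knockout minus wild type was -0.21 (SE 0.07, adjusted p = 0.0382), or -0.19 without wild type array 6 (adjusted p = 0.0192), a call that was lost when any of 10 of the 15 arrays was left out and with the replicate number as a block (adjusted p = 0.126). The sign turned, to 0.072, with repeated quantile normalization (adjusted p = 0.579).

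Fgf9 codes for a ligand that favours the c splice forms of the receptors and FGFR3. Its probe set 1420795_at had group means of 8.12 in wild type sham (SD 0.14), 8.02 in wild type MCAO (SD 0.24), 7.93 in knockout sham (SD 0.10) and 7.84 in knockout MCAO arrays (SD 0.19), and every pair of groups overlapped. MCAO minus sham was -0.10 in wild type (adjusted p = 0.681) and -0.09 in knockout mice (adjusted p = 0.662). On the further probe set 1438718_at the knockout sham arrays, at 7.24, 6.95 and 6.87, lay below the wild type sham arrays, at 7.79, 7.74 and 7.51, with a difference of -0.66 that was not called (SE 0.23, adjusted p = 0.0896). In naive mice Fgf9 read 7.65 on wild type array 6 and 8.53 to 8.71 on the other 14 arrays, with a genotype difference of 0.11 with that array and -0.01 without it. Neither Fgf9 probe set was called in any comparison.

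Fgfr1 codes for a receptor that is expressed by both neurons and glia. Its brightest probe set, 1424050_s_at, read 8.31, 8.51 and 8.41 on knockout sham arrays and 9.34, 9.69, 9.38, 9.74, 9.67, 9.36 and 8.93 on knockout MCAO arrays, which did not overlap. Fgfr1 rose by 1.03 after MCAO in knockout mice (SE 0.19, 2.05-fold, limma adjusted p = 0.000768, n = 7 and 3). The call held in all 21 other settings tried on it, with adjusted p from 4.95e-05 to 0.0477 and a difference of 0.46 to 1.16. The lowest of these was the mean over its 3 probe sets, of which 1425911_a_at changed by 0.34 (adjusted p = 0.279) and 1436551_at by -0.01 (adjusted p = 0.985).

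Wild type sham arrays read 8.82, 8.31 and 8.55 for Fgfr1 and wild type MCAO arrays 9.23, 9.24, 9.21, 9.43, 8.73, 8.63 and 8.58. MCAO arrays 1 to 4 were above all wild type sham arrays and arrays 5 to 7 were within their range. The difference was 0.45 (SE 0.19, adjusted p = 0.134), 0.57 with the replicate number as a block (adjusted p = 0.0378) and 0.59 with array weights (adjusted p = 0.00682). The sham arrays share their replicate numbers only with MCAO arrays that were among the high ones. The value and call with the block thus rest more on those high arrays. The genotypes' changes differed by 0.59, which was not called (SE 0.26, adjusted p = 0.148). Knockout minus wild type was 0.44 after MCAO (SE 0.15, adjusted p = 0.165) and -0.15 after sham surgery (SE 0.22, adjusted p = 0.708).

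In naive mice Fgfr1 was higher in every knockout array (9.09 to 9.46) than in any wild type array (8.12 to 9.03). The difference was 0.45 (SE 0.12, adjusted p = 0.0133), 0.36 without wild type naive array 6 (adjusted p = 0.000911) and 0.31 after each array was centred on its median, where it was no longer called (adjusted p = 0.0823). The mean of its 3 probe sets was higher by 0.52, also not called (adjusted p = 0.0570). Probe set 1436551_at was higher by 0.38 (adjusted p = 0.0318), or 0.44 without array 6 (adjusted p = 0.00173), and 1425911_a_at read 5.19 on wild type naive array 6 against 8.89 to 9.16 on the other wild type naive arrays, with a difference of 0.71 with that array (adjusted p = 0.337) and 0.23 without it (adjusted p = 0.0107).

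Fgfr2 and Fgfr3 code for receptors found largely on glia. Neither was called on any surgery comparison, at any of their 5 probe sets. The brightest Fgfr2 probe set, 1433489_s_at, stayed between 8.55 and 9.25 on all 20 surgery arrays, with MCAO minus sham at -0.14 in wild type (SE 0.13, adjusted p = 0.531) and -0.07 in knockout mice (SE 0.13, adjusted p = 0.749). The 3 Fgfr2 probe sets differed in sign in wild type, from -0.39 to 0.33. In naive mice it read 9.63, 9.44, 9.76, 9.49, 9.83, 7.97, 9.84 and 9.79 in wild type and 10.12, 10.13, 10.07, 10.17, 9.90, 9.95 and 10.07 in knockout arrays. The naive genotypes did not overlap, and the difference of 0.59 was not called with wild type array 6 (SE 0.22, adjusted p = 0.0789) but was 0.37 and called without it (SE 0.07, adjusted p = 0.000814).

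Fgfr3 read 9.54 to 9.94 on 5 of the 7 wild type MCAO arrays on probe set 1421841_at, 9.34 on array 6 and 8.60 on array 4, and 9.68 to 10.28 on the knockout MCAO arrays. Knockout minus wild type after MCAO was 0.33 (SE 0.16, adjusted p = 0.294). Its second probe set, 1425796_a_at, went the other way, -0.96 (SE 0.39, adjusted p = 0.229), with 6.02, 6.03 and 5.22 on knockout MCAO arrays 2, 4 and 5 against 7.44 to 8.07 on the other 4. Knockout MCAO arrays 2 and 5 also had the highest Gapdh 3′ minus 5′ differences of the surgery arrays, 0.38 and 1.18, and the part of this in the low values was not tested. In naive mice Fgfr3 differed by 0.18 (adjusted p = 0.481), or 0.04 without wild type array 6 (adjusted p = 0.735).

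**Figure D3:**
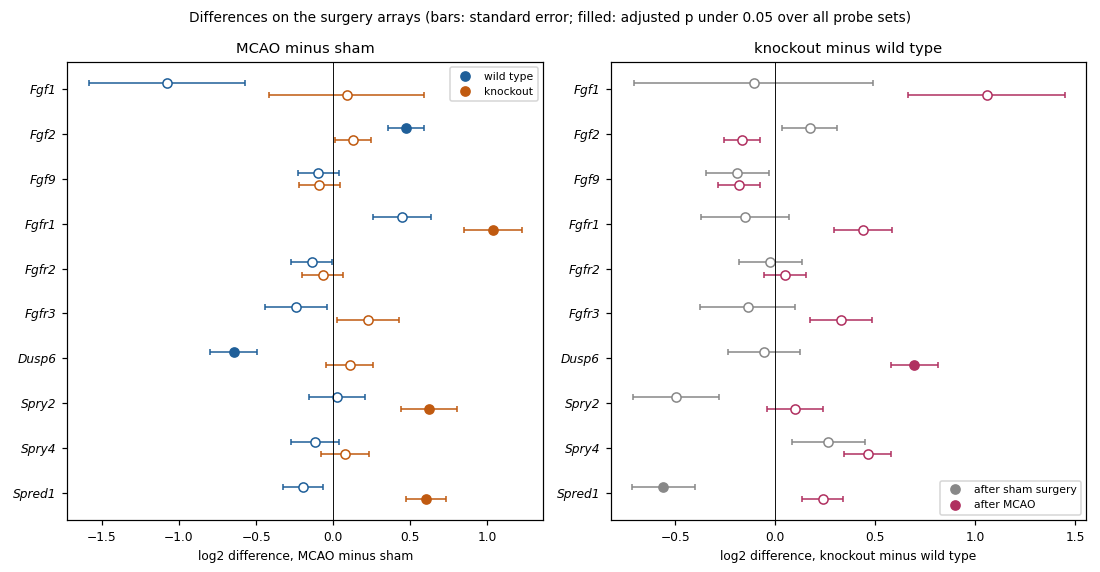
Log2 difference of MCAO minus sham in each genotype (left) and of knockout minus wild type after each surgery (right) for the brightest probe set of each gene; bars are limma's standard errors and filled points have an adjusted p under 0.05 over all probe sets. Fgf2 and Dusp6 are filled in wild type mice, and Fgfr1, Spry2 and Spred1 in knockout mice; between the genotypes Dusp6 is filled after MCAO and Spred1 after sham surgery.

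Of the 4 feedback inhibitors Dusp6 was called between the genotypes after MCAO, and Spred1 on 2 of its 8 probe sets but not on the brightest. The promoters of Dusp6, Spry2 and Spred1, the feedback genes that were called on their brightest probe set in some comparison, are shown to let their sequence be read beside these values. They run from 250 bases before to 50 bases after the start in RefSeq (GRCm38.p6), Dusp6 at chr10:99262981-99263280 on the + strand, Spry2 at chr14:105896770-105897069 on the - strand and Spred1 at chr2:117120821-117121120 on the + strand, each 5′ to 3′. Capitals mark CCGGAA and AGGAAG, letters read by ETS factors downstream of ERK, on either strand; both share GGAA.
Dusp6: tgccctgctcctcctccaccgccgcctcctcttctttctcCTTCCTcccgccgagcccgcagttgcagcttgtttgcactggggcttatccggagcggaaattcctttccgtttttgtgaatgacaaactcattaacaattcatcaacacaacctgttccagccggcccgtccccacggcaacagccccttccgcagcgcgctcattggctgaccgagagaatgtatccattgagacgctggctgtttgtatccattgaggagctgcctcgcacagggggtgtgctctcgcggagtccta
Spry2: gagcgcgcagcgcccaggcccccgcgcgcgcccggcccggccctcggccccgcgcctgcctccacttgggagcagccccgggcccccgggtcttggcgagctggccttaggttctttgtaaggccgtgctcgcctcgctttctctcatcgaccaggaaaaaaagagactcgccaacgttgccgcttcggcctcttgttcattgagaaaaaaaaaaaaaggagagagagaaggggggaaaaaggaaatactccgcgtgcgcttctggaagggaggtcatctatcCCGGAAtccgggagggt
Spred1: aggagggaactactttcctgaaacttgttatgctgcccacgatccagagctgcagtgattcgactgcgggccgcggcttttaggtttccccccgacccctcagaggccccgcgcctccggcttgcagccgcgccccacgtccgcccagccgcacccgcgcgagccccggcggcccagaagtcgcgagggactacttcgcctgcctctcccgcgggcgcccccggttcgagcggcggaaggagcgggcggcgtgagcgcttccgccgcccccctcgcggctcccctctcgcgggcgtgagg
Promoters of 7 of the 10 genes were found, 8 in all because Fgfr3 has 2. CCGGAA was in 14.9% of the 32851 RefSeq promoters of this length and, among these genes, once in Spry2. AGGAAG, searched after the matches of CCGGAA were seen, was in 35.4% of all promoters, once in Dusp6, once in Fgf2 and at 2 places in Fgfr2. The cAMP response element TGACGTCA, which CREB reads downstream of receptors such as the beta2 adrenergic receptor, was in 1.79% of all promoters and in none of the 8. These matches are letters in a window and are no measure of binding.

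Dusp6 was measured by 1 probe set, 1415834_at. Wild type sham arrays read 10.41, 9.97 and 9.90 and wild type MCAO arrays 9.33, 9.42, 9.72, 9.64, 9.57, 9.21 and 9.26. Every wild type MCAO array was below every wild type sham array. Dusp6 fell by 0.64 on the log2 scale (SE 0.15, 1.56-fold lower, limma adjusted p = 0.00971, n = 7 and 3). Without wild type sham array 1, the highest, the difference was -0.49 and no longer called (adjusted p = 0.102).

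Knockout sham arrays read 10.31, 10.29 and 9.51 for Dusp6 and knockout MCAO arrays 10.10, 10.26, 10.04, 10.18, 10.20, 10.04 and 10.22. The knockout MCAO arrays lay close together (SD 0.09) and inside the range of the knockout sham arrays. Their difference was 0.11 (SE 0.15, adjusted p = 0.640). The change after MCAO differed between the genotypes by 0.75 (SE 0.22, adjusted p = 0.0420). That call was lost when any of 13 of the 20 surgery arrays was left out, with adjusted p up to 0.156 without knockout sham array 3, and under 4 other settings, with adjusted p up to 0.214 under repeated quantile normalization. The difference stayed at 0.48 or more throughout.

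Set against each other after MCAO, all 7 knockout arrays were above all 7 wild type arrays for Dusp6. The difference was 0.70 (SE 0.12, 1.62-fold higher, adjusted p = 0.0190), and it was 0.73 without wild type MCAO arrays 1 to 3 (adjusted p = 0.0172). The 3 wild type arrays with low Fgf1, at 9.33, 9.42 and 9.72 for Dusp6, lay among the other 4, at 9.21 to 9.64, apart from array 3 just above them. Leaving out wild type MCAO array 6 or 7 or knockout MCAO array 2 or 5 raised the adjusted p to between 0.0510 and 0.0620, and the Gapdh 3′ minus 5′ difference as a covariate raised it to 0.0762, while the difference stayed between 0.62 and 0.74 in all 26 other settings. After sham surgery the genotypes overlapped, with a difference of -0.06 (SE 0.18, adjusted p = 0.876).

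In naive mice Dusp6 read 10.08, 10.16, 9.89, 10.17, 10.17, 8.06, 10.22 and 10.44 in wild type and 10.46, 10.41, 10.46, 10.82, 10.05, 10.18 and 10.46 in knockout arrays. The ranges overlapped. The genotype difference was 0.50 (SE 0.28, adjusted p = 0.235) and 0.24 without wild type naive array 6 (SE 0.10, adjusted p = 0.0737), neither called.

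Spry2 codes for a sprouty protein. Its brighter probe set, 1436584_at, read 8.74, 8.43 and 8.05 on knockout sham arrays and 8.76, 8.95, 9.03, 9.16, 9.08, 8.99 and 9.25 on knockout MCAO arrays, which did not overlap, though the highest sham array lay just under the lowest MCAO array. Spry2 rose by 0.62 in knockout mice (SE 0.18, 1.54-fold, adjusted p = 0.0226). The call was lost without knockout sham array 2 (0.63, adjusted p = 0.0741) or 3 (0.44, adjusted p = 0.185), with the replicate block (0.53, adjusted p = 0.0642), under repeated quantile normalization (0.46, adjusted p = 0.101) and over the mean of both probe sets (0.30, adjusted p = 0.0994).

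Wild type sham arrays read 8.69, 9.11 and 8.93 for Spry2 and wild type MCAO arrays 8.81, 8.79, 9.02, 9.71, 8.75, 8.61 and 8.84, with array 4 above all others. Their difference was 0.02 (SE 0.18, adjusted p = 0.948). The genotypes' changes differed by 0.60, which was not called (SE 0.26, adjusted p = 0.133), but by 0.72 without wild type MCAO array 4 (adjusted p = 0.0331) and by 0.71 with array weights (adjusted p = 0.0149), and both were called. In naive mice wild type array 6 read 11.04 where the other wild type arrays read 8.50 to 8.93 and the knockout arrays 9.01 to 9.32. The naive difference was 0.11 with that array (SE 0.29, adjusted p = 0.819) and 0.40 without it (SE 0.07, adjusted p = 0.000321). On the dimmer probe set 1421656_at it was -0.18 with that array and -0.02 without it (limma adjusted p = 0.867), neither called.

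Spry4 codes for a second sprouty protein. Its brightest probe set, 1440867_at, was not called in any comparison as first fitted. In naive mice it differed by 0.12 with wild type array 6 (adjusted p = 0.269), by 0.15 without it (adjusted p = 0.0417), by 0.11 with array weights (adjusted p = 0.0427) and by 0.15 with the Gapdh covariate (adjusted p = 0.0489). It read 8.00, 7.38 and 7.29 on wild type sham, 7.14 to 7.74 on wild type MCAO, 7.91, 7.74 and 7.82 on knockout sham and 7.53 to 8.17 on knockout MCAO arrays. Knockout minus wild type after MCAO was 0.46 (SE 0.12, adjusted p = 0.115), with an adjusted p of 0.0460 when the actin 3′ minus 5′ difference was a covariate and a difference of 0.01 over the mean of its 4 probe sets. After sham surgery it was 0.27 (SE 0.18, adjusted p = 0.382), and 0.36 with array weights (adjusted p = 0.0463). The dimmer probe set 1422020_at, near 4.65, moved otherwise. It changed by -0.51 after MCAO in knockout mice (SE 0.17, adjusted p = 0.0430; sham 4.76, 5.14 and 4.95, MCAO 4.11 to 4.71) and was lower by 0.47 on the log2 scale in naive knockout mice (SE 0.10, adjusted p = 0.00319, and 0.00112 without wild type array 6), without overlap in either comparison. The 4 Spry4 probe sets thus did not give 1 direction.

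Spred1 had 8 probe sets. The brightest, 1423160_at, read 10.51, 9.90 and 9.71 on knockout sham arrays and 10.66, 10.56, 10.69, 10.45, 10.77, 10.78 and 10.60 on knockout MCAO arrays. Knockout sham arrays 2 and 3 were below all other surgery arrays, and array 1 was above the lowest knockout MCAO array. Spred1 rose by 0.60 in knockout mice (SE 0.13, 1.52-fold, adjusted p = 0.00357), and by 0.44 without knockout sham array 3, where the call was lost (adjusted p = 0.0572). Over the mean of all 8 probe sets it was 0.27 (adjusted p = 0.0552). Probe sets 1423161_s_at and 1460116_s_at also rose in knockout mice, the former by 0.39 (SE 0.12, adjusted p = 0.0332) and the latter by 0.71 (SE 0.24, adjusted p = 0.0430).

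Wild type sham arrays read 10.62, 10.71 and 10.48 on the same Spred1 probe set and wild type MCAO arrays 10.35, 10.50, 10.50, 10.25, 10.54, 10.16 and 10.52. The difference was -0.20 (SE 0.13, adjusted p = 0.359). The change differed between the genotypes by 0.80 on 1423160_at (SE 0.19, adjusted p = 0.0226), and on 1452911_at it differed by 0.92 (SE 0.26, adjusted p = 0.0383). The first of these calls was lost when wild type sham array 1 or 2 or knockout sham array 2 or 3 was left out, with adjusted p from 0.0616 to 0.101, with the actin covariate (adjusted p = 0.0659) and under repeated quantile normalization (0.52, adjusted p = 0.126). The call of 1452911_at was also lost without wild type sham array 1 and without knockout sham array 3.

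After sham surgery Spred1 was lower in knockout mice by 0.56 on 1423160_at (SE 0.16, adjusted p = 0.0441). This was lost when any of 5 of the 6 sham arrays was left out; without knockout sham array 3 it was -0.40 (adjusted p = 0.244). It was also lost with the replicate block (adjusted p = 0.0642), with only the sham arrays fitted (adjusted p = 0.0746) and under repeated quantile normalization (-0.36, adjusted p = 0.206). The 8 probe sets ran from -0.56 to 0.36, and their mean was -0.14 (adjusted p = 0.454). The sham arrays also differed in the actin 3′ minus 5′ difference, 0.86 to 1.01 in wild type and 1.60 to 1.76 in knockout mice, and with that difference as a covariate the Spred1 value was -0.56 and not called (adjusted p = 0.184). After MCAO the genotypes differed on 2 other Spred1 probe sets. On 1452911_at wild type MCAO arrays read 8.40, 8.60, 8.21, 8.87, 8.42, 8.06 and 8.38 and knockout MCAO arrays 9.03, 9.36, 8.79, 9.43, 9.41, 9.24 and 8.93, and only wild type array 4 reached the knockout range. The difference was 0.75 (SE 0.14, adjusted p = 0.0375), and it was 0.85 on 1428777_at (SE 0.16, adjusted p = 0.0416), 0.89 and not called on 1460116_s_at (SE 0.18, adjusted p = 0.0639) and 0.24 and not called on 1423160_at (SE 0.10, adjusted p = 0.255). The 8 probe sets ran from -0.11 to 0.89 after MCAO. Both Spred1 calls were lost without wild type MCAO array 6 and with the Gapdh covariate, where 0 of the 29 probe sets were called. In naive mice no Spred1 probe set was called by limma, with or without wild type array 6, and 1423160_at differed by -0.11 or -0.02.

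**Figure D4:**
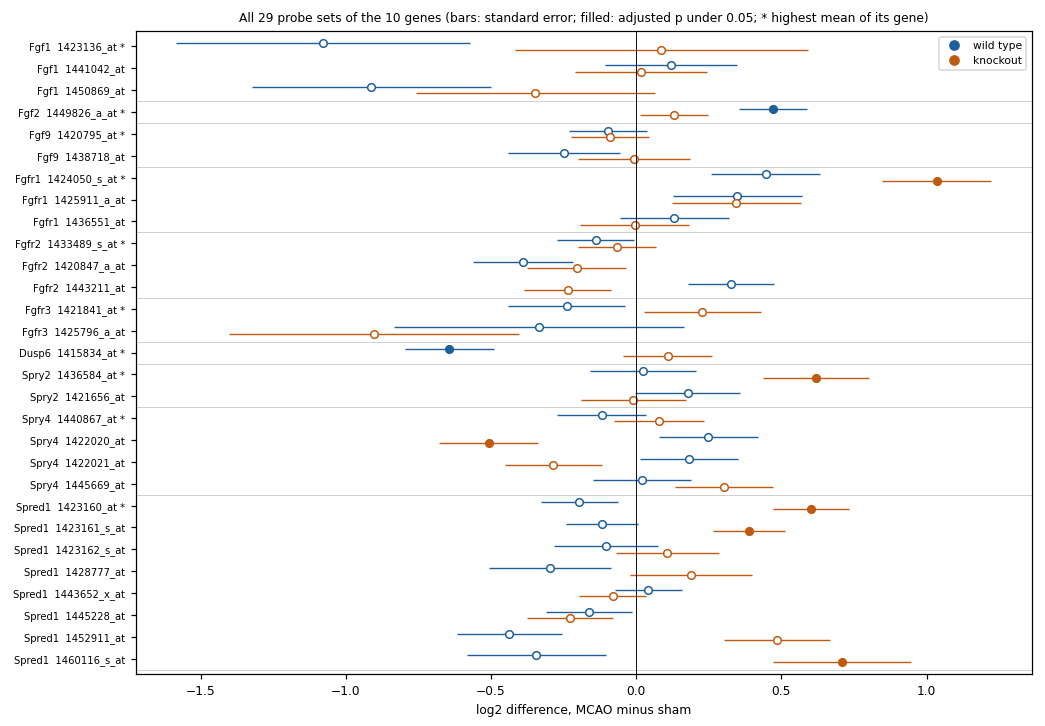
Log2 difference of MCAO minus sham for all 29 probe sets of the 10 genes in wild type and knockout mice, with limma's standard errors; filled points have an adjusted p under 0.05 and a star marks the brightest probe set of a gene. Of the 8 Spred1 probe sets 3 are filled in knockout mice and none in wild type mice, and the Spry4 probe set 1422020_at is filled on the other side of 0 in knockout mice.

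**Figure D5:**
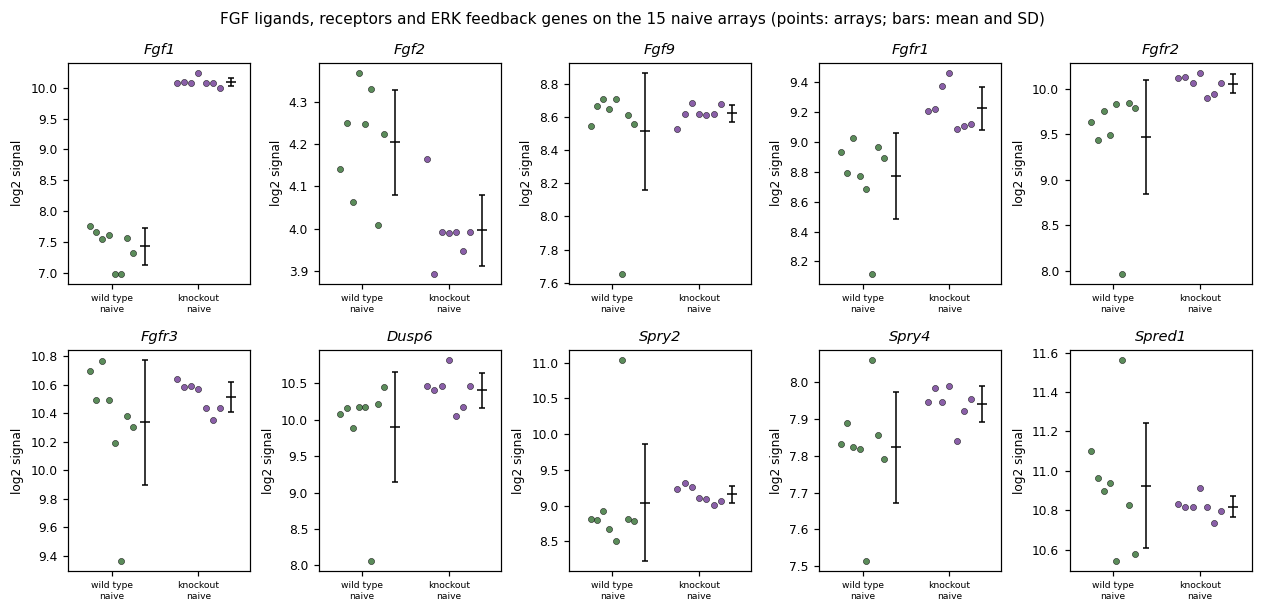
Log2 signal of the 10 genes on each of the 15 naive arrays, with the mean and SD of each genotype beside the points. Fgf1, Fgfr1 and Fgfr2 do not overlap between the genotypes, and wild type array 6 is the far point for Dusp6, Fgf9, Fgfr1, Fgfr2, Fgfr3 and Spry2. The share of all probe sets without overlap was not counted, and 20.1% of all were called between the naive genotypes.

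The rest of the pathway was read from lists of 98 measured genes. After MCAO 17 rose and 9 fell in wild type mice (26.5%) and 19 rose and 6 fell in knockout mice (25.5%). Counted in the same way, on the brightest probe set of each of 18193 genes, 13.7% of all genes were called in wild type and 22.5% in knockout mice, so the knockout share of the lists was near that of all genes. The change differed between genotypes for 8 of 98 (8.16%), near the 8.03% of all genes. All 8 calls were lost without knockout sham array 3, where limma called 0 of 45037 probe sets for this difference (smallest adjusted p = 0.0716). By limma no list gene was called between the genotypes after MCAO (20 had an unadjusted p under 0.05), beside 0.077% of all genes. After sham surgery 1 was called (1.02%, beside 5% of all genes). In naive knockout mice 16 were higher and 3 lower (19.4%, beside 16.3% of all genes), and without wild type array 6 45 were higher and 3 lower (49%, beside 36.5%). The median log2 difference of the 98 genes was 0.03 in wild type and 0.05 in knockout mice after MCAO, and 0.18 in naive mice.

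The lists below are to be read beside the 13.7% and 22.5% of all genes called after MCAO in wild type and knockout mice. Genotype differences in the change that are named below were not called without knockout sham array 3. Of 13 ERK target genes, 5 rose and 3 fell in wild type mice and 5 rose and 1 fell in knockout mice, medians 0.21 and 0.56. The AP-1 gene Fosl1 rose by 2.22 (adjusted p = 5.07e-05) in wild type and 1.41 (adjusted p = 0.00193) in knockout mice, and the immediate early gene Myc by 1.41 (adjusted p = 6.94e-05) and 1.28 (adjusted p = 0.000102). Etv4, an ETS factor of the PEA3 kind, fell by 0.47 in knockout mice (adjusted p = 0.00107). Etv5, of the same kind, and Egr1, picked after their values were seen, fell in wild type mice by 1.16 (adjusted p = 0.0152) and 0.76 (adjusted p = 0.0179). Srf fell by 0.50 in wild type mice (adjusted p = 0.00542) and its change differed between the genotypes by 0.58 (adjusted p = 0.0332), with a further probe set of the other sign. Ccnd1, cyclin D1, rose by 0.91 in wild type (adjusted p = 0.0137) and Elk3, an ETS factor, by 1.98 in knockout mice (adjusted p = 0.000225).

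Of 13 further feedback inhibitors 4 rose and 1 fell in wild type mice, and 3 rose and 1 fell in knockout mice. Errfi1, which restrains the EGF receptor, rose by 1.09 (adjusted p = 0.00475) and 1.27 (adjusted p = 0.000877). Spry1 rose by 0.51 (adjusted p = 0.00527) and 0.53 (adjusted p = 0.00267), and the nuclear ERK phosphatase gene Dusp5 by 0.66 (adjusted p = 0.00519) and 0.53 (adjusted p = 0.0144), in wild type and knockout mice in that order. The sprouty gene Spry3 fell in wild type mice, by 0.64 (adjusted p = 0.0124), as Dusp6 did. For none of the 13 was the genotype difference in the change called by limma, and 3 had an unadjusted p under 0.05.

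Of 16 adaptors and kinases of the chain to ERK, 1 rose and 1 fell in wild type and 5 rose in knockout mice. Shc1, an adaptor, rose by 0.72 (adjusted p = 0.00386) and 0.58 (adjusted p = 0.0106). Sos2, which loads RAS with GTP, rose by 0.61 in knockout mice (adjusted p = 0.0106), was lower by 0.70 on the log2 scale in knockout than wild type sham arrays (adjusted p = 0.0360), and its change differed by 0.95 (adjusted p = 0.0218). Rps6ka3, a kinase activated by ERK, and Rasa1, which turns RAS off, also changed differently, by 0.80 (adjusted p = 0.0244) and 0.69 (adjusted p = 0.0269). The differences in the change of Sos2, Rps6ka3 and Rasa1 were not called without knockout sham array 3.

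Of 15 other secreted FGFs, 1 rose in wild type mice, Fgf18 by 0.48 (adjusted p = 0.0424), and 3 fell in knockout mice, Fgf10 by 0.28 (adjusted p = 0.0319), Fgf3 by 0.43 (adjusted p = 0.0355) and Fgf22 by 0.37 (adjusted p = 0.0396) on the log2 scale. The intracellular FGF homologous factors, which bind sodium channels and no FGF receptor, fell in 2 of 4 cases in wild type mice, Fgf13 by 0.97 (adjusted p = 0.00896) and Fgf14 by 0.92 (adjusted p = 0.0161), and Fgf13 fell by 0.69 in knockout mice (adjusted p = 0.0381). Of 16 further receptors, co-receptors and carriers the syndecan gene Sdc1 rose most, by 1.86 (adjusted p = 0.00126) and 2.42 (adjusted p = 6.40e-05). Among 9 heparan sulfate enzymes the sulfatase gene Sulf2, whose product trims the sulfate FGFs bind, rose by 0.55 (adjusted p = 0.00169) and 0.74 (adjusted p = 6.40e-05). Of 12 ligands of other receptor kinases Hbegf, a ligand of the EGF receptor, rose by 2.08 (adjusted p = 1.62e-05) and 2.12 (adjusted p = 6.58e-06). Nrg1 and Egf changed differently between the genotypes, by 0.58 (adjusted p = 0.0252) and -0.49 (adjusted p = 0.0428), and neither was called without knockout sham array 3.

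In naive knockout mice the list genes with the smallest p were Fgf11 (0.52, adjusted p = 0.000286), Hbegf (0.38, adjusted p = 0.000982), Fgf15 (-0.47, adjusted p = 0.000990), Vegfa (0.53, adjusted p = 0.00100) and the FGF receptor antagonist gene Il17rd (0.32, adjusted p = 0.00213). Without wild type array 6 these were 0.53, 0.36, -0.47, 0.56 and 0.31, in the same order, and all were called by limma. They stand beside the shift of 0.15 between the genotypes' array medians.

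Of 76 cell type markers 20 were called after MCAO in each genotype (26.3%), beside 13.7% of all genes in wild type and 22.5% in knockout mice. After MCAO 2 of 10 astrocyte markers rose in each genotype, led by Gfap (1.95 in wild type and 2.13 in knockout mice). Among 8 endothelial markers 3 rose and 1 fell in wild type mice, while 4 rose in knockout mice. Among 7 myeloid markers 2 rose in wild type mice, while 2 rose and 2 fell in knockout mice. Wild type mice had 4 of 8 oligodendrocyte markers higher and knockout mice 2. For meninges and fibroblasts 1 of 7 markers rose in wild type mice and 3 rose in knockout mice. Microglia markers fell in 2 of 6 cases in each genotype. Striatal neuron markers fell in 3 of 7 cases in wild type mice and in 1 in knockout mice. Among 5 oligodendrocyte precursor markers 1 fell in each genotype and 1 rose in knockout mice. The mean level of 7 striatal neuron markers varied among the sham arrays, 10.60, 11.16 and 8.75 on wild type and 10.86, 9.10 and 9.24 on knockout sham arrays 1 to 3, against 8.14 to 9.58 on the MCAO arrays. The mean level of 9 neuron markers was 12.13 to 12.27 on wild type sham and 11.99 to 12.32 on knockout sham arrays. It was 11.61 to 12.18 on wild type MCAO and 11.96 to 12.23 on knockout MCAO arrays. Wild type MCAO arrays 5, 6 and 7, at 11.75, 11.61 and 11.71, lay below every sham array. In wild type mice 1 of the 9 was called lower after MCAO. Between the genotypes after MCAO limma called none of 76 markers over all lists, of which 17 had an unadjusted p under 0.05. The genotypes' changes differed for 2 of the 76 markers (2.63%), beside 8.03% of all genes. Both were among the 7 myeloid markers, with the knockout change below the wild type change on the log2 scale. Neither was called without knockout sham array 3. The mean level of the meninges and fibroblast markers was 8.19 to 8.67 on wild type MCAO arrays 1 to 4. It was 7.54 to 7.84 on wild type MCAO arrays 5 to 7, and Fgfr1 was also lower on these arrays. Knockout MCAO array 7 was the lowest of its group for this level, at 7.43, and for Fgfr1, at 8.93. That array was also the lowest of its group for the astrocyte (10.56), choroid plexus (7.54), striatal neuron (8.14) and myeloid (5.59) levels. The same held for the endothelial and erythrocyte levels, but not for the neuron, oligodendrocyte, oligodendrocyte precursor and microglia levels. Its low value was thus not particular to the meninges and fibroblast list. The meninges and fibroblast list was picked from all marker lists after its values were seen. The part of all these levels in the changes of the 10 genes was not tested.

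The non-member gene with the pattern most like each of the others over the 20 surgery arrays, by Pearson's r, was Ninj1 for Fgf2 (0.90), Septin4 for Fgf9 (0.81), Noct for Fgfr1 (0.92), Frmd5 for Fgfr2 (0.82), Ro60 for Fgfr3 (0.94), Foxk2 for Dusp6 (0.82), Crh for Spry2 (0.89), Nacc1 for Spry4 (0.92) and Pomp for Spred1 (0.84). Over the 15 naive arrays the same pairs had r of -0.46 for Ninj1, 0.95 for Septin4, -0.06 for Noct, -0.69 for Frmd5, -0.42 for Ro60, 0.94 for Foxk2, 0.90 for Crh, -0.20 for Nacc1 and -0.63 for Pomp, with wild type array 6 among the arrays. The pairs share their arrays and groups, and each was the highest of all genes, so the values are descriptions.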

How the data were processed

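Brain hemisphere RNA was labelled with biotin by in vitro transcription and hybridised to Affymetrix arrays, per the labels' protocols. The authors deposited 1 log2 value per probe set and array, made with RMA according to the submitters' processing notes (version not given in the sources used here). Per the series' design text, RMA was run on the naive set and the surgery set independently. The number of arrays limits the precision.

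Of 45101 probe sets 64 controls were left out; 34945 of the rest had 1 gene symbol, 932 several and 9160 none, and genes were named only from the first kind (34741 matched RefSeq by Entrez ID). A linear model per probe set was fitted with limma 3.58.1 (R 4.3.3; lmFit, then contrasts.fit, then eBayes), 1 for the 20 surgery arrays (5 comparisons) and 1 for the 15 naive arrays. P-values were adjusted by Benjamini-Hochberg over all 45037 probe sets. The steps were tested on simulated data.

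The 10 genes and the pathway and marker lists were chosen with earlier results of these data known. Named were all 10 genes, per list and comparison up to 4 called genes with the smallest p, of which some were picked for the text after their values were seen, and for each of the 10 the 1 other gene with the highest r. Of the listed genes 19 had no probe set with 1 symbol and are not analysed here. Values of the targeted receptor gene are not reported.

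Other settings were 1 probe set or the mean per gene, an intensity trend, leaving out dim probe sets, median centring, repeated quantile normalization, array weights, a replicate block, Gapdh and actin 3′ minus 5′ covariates, only the arrays compared, adjusted p under 0.01 and leaving out each array. Leaving out wild type MCAO arrays 1 to 3 together (not for Fgf1, on which they were picked), and quantile normalization without wild type naive array 6, were chosen after seeing the data.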

Additional observations from a re-analysis of the deposited data

Results flagged for a closer look

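Of 40 sets of arrays checked (10 genes in the 4 groups of 7 or 8 arrays), 9 held an array whose gap to the rest was larger than Dixon's 95% limit, where chance alone gives about 1 in 20. Wild type naive array 6 made 6 of the 9: it was the lowest for Dusp6 (8.06), Fgf9 (7.65), Fgfr1 (8.12), Fgfr2 (7.97) and Fgfr3 (9.37) and the highest for Spry2 (11.04). Knockout naive array 4 was the highest for Fgf1 (10.24), knockout naive array 1 the highest for Fgf2 (4.17) and wild type MCAO array 4 the highest for Spry2 (9.71). The 3 low Fgf1 arrays of the wild type MCAO group are not found by this check, which looks for a single far array.

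The change after MCAO differed between the genotypes, by the interaction in limma, for Dusp6 (0.75), for the Spred1 probe set 1423160_at (0.80) and for the Spred1 probe set 1452911_at (0.92), knockout minus wild type. It differed for 7.41% of all probe sets. The Dusp6 call was lost in 17 and that of 1423160_at in 6 of 31 other settings.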

How the results depend on the processing

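Numbers here are probe sets called among the 29, out of 2 for MCAO against sham in wild type, 6 in knockout mice, 3 for the difference in change, 3 for genotype after MCAO, 1 after sham surgery and 7 in naive mice. An adjusted p under 0.01 left 1, 2, 0, 0, 0 and 4, in that order, beside 4.35%, 8%, 0%, 0.0355%, 0.04% and 10.8% of all probe sets. With probe sets under the median signal left out only 21 of the 29 were tested. There were 1 for wild type (19.4% of the 22519 probe sets kept) and 3 for naive mice (4.16%). Repeated quantile normalization gave 2 for knockout mice (14.9% of all) and 0 for the difference in change (1.39% of all). It gave 1 after MCAO (0.104% of all) and 0 after sham surgery (1.38% of all). Array weights gave 5 for wild type, 7 for the difference in change, 8 after sham surgery and 12 for naive mice, where they called 18.9%, 14.7%, 27.7% and 44.1% of all probe sets. The Gapdh covariate gave 1 for the difference in change (2.99% of all), 0 after MCAO (0.0511% of all) and 12 for naive mice (40.4% of all). The actin covariate gave 3 for knockout mice (10.5% of all), 6 after MCAO (3.68% of all) and 11 for naive mice (38.7% of all). It gave 0 for the difference in change and 0 after sham surgery. For these 2 it called 0.127% and 0.00666% of all probe sets, where the first fit called 7.41% and 4.67%. With only the arrays compared there was 1 after MCAO (0.04% of all) and 2 after sham surgery (13.4% of all). Taking the mean of each gene's probe sets, 1 gene in place of 3 was called in knockout mice (23.3% of all genes). After sham surgery 0 in place of 1 was called (5.93% of all genes). Without wild type MCAO arrays 1 to 3 only 26 of the 29 were counted, since Fgf1 was left out. There were 4 for wild type (13.4% of all) and 5 for the difference in change (12.7% of all). After MCAO there were 5, where 1785 of all probe sets (3.96%) were called in place of 59. Quantile normalization without wild type naive array 6 gave 11 for naive mice (25.7% of all). The Fgf2 difference in naive mice reversed, from -0.21 to 0.072 with quantile normalization and to 0.052 with that and without array 6.

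Leaving out 1 array at a time gave 0 to 2 for wild type (0 without wild type sham array 1). It gave 1 to 7 for knockout mice (1 without knockout sham array 3) and 0 to 5 for the difference in change. There were 0 to 4 after MCAO, 0 to 1 after sham surgery and 5 to 12 for naive mice (12 without wild type naive array 6). Of all probe sets the same fits called 2438 to 4838, 3715 to 9583, 0 to 5362, 18 to 138, 5 to 2207 and 7153 to 17919, in that order. Without knockout sham array 3 limma called 0 of all 45037 probe sets for the difference in change, where 9486 had an unadjusted p under 0.05.

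Same-numbered arrays did not all deviate together. The correlation of their deviations was -0.17 to 0.26 between the MCAO groups, -0.19 to 0.09 between the sham groups, -0.21 to 0.34 between wild type sham and wild type MCAO arrays and -0.20 to 0.47 between the naive groups, where 4 of 7 pairs were over 0.1. Since not every pair was over 0.1, the numbers were not taken as pairs. With the replicate number as a block 5 were called for wild type (7.12% of all), 3 for knockout mice (14.9% of all) and 0 after sham surgery (3.04% of all). The sham arrays have only the lowest 3 numbers, so for MCAO against sham the block rests more on MCAO arrays with these numbers. The Fgf2 call in naive mice was lost with this block (limma adjusted p = 0.126). The causes of these changes were not tested. Signals of Fgf2 and of 7 further probe sets lie below the median probe set, which limits their precision.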
